A study of Homo sapiens with 9 samples.

Results

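The genes described are 10 that encode proteins of the primary (azurophil) granule or other myeloid granules, or that mark myeloid progenitors. MS4A3, for a membrane protein of progenitors, is among the markers, and all 10 are called granule genes for short. They were taken by symbol, from a list drawn up with earlier results of these data known, and all 10 were found among the 30017 genes of the count table. They are MPO, ELANE, PRTN3, AZU1, CTSG, LYZ, RNASE2, CST7, MS4A3 and SRGN. RNA-sequencing (RNA-seq) was performed on MOLM13 cells, an established human line derived from acute monocytic leukemia. All cells were transduced with a pLKO-GFP lentivirus carrying a short hairpin RNA, either a control hairpin (sh-Control) or 1 of 2 hairpins against the RNA helicase DDX41 (shDDX41 #1 and shDDX41 #2), and GFP-positive cells were sorted on day 4. Each of the 3 groups held 3 libraries, named by the letters A, B and D, all from the same line and with GFP and a hairpin in the controls too.

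Primary granules are the storage granules that form first during neutrophil maturation, at the promyelocyte stage, and monocyte precursors make a related granule. They hold myeloperoxidase, the neutrophil serine proteases, lysozyme and cationic antimicrobial proteins, which are packed onto the proteoglycan serglycin and reach phagocytosed microbes when the granule fuses with the phagosome. The genes for myeloperoxidase and the serine proteases are transcribed in a narrow window of myeloid development under PU.1, C/EBP and RUNX factors. They are silenced as the cell matures, so their mRNAs are used as markers of the progenitor stage. This does not hold for every gene described, since lysozyme is also abundant in monocytes.

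In the 9 libraries the table held 16385238 to 20510032 counts each, and 12712 genes, all 10 granule genes among them, passed a filter on low counts. CPM stands for a gene's share of the counts of its library after scaling by the trimmed mean of M-values, and errors are the SD over 3 libraries. A gene was called where the quasi-likelihood test of edgeR gave a Benjamini-Hochberg adjusted p under 0.05 over all genes tested. DDX41 was at 115 ± 1.76 CPM in sh-Control, 11.7 ± 1.56 with shDDX41 #1 and 40.4 ± 1.85 with shDDX41 #2, so that 10.2% and 35.2% of the control level remained. The library shDDX41 #1 D stood apart from its replicates, with a chi-square per degree of freedom of 16.8 and 18.4 against A and B. The pair shDDX41 #1 A and B was at 2.84, the shDDX41 #2 pairs at 2.42 to 3.17 and the sh-Control pairs at 7.76 to 9.79. Of the lineage markers examined, CD33, FLT3 and PTPRC had group means of 105 to 454 CPM, CD14, a marker of mature monocytes, had group means of at most 0.101 CPM, and the stem cell marker CD34 had no count. Of the 9 myeloid markers 7 were tested, and 3 were called with each hairpin. The shares called of all genes were 47.8% with shDDX41 #1 and 25% with shDDX41 #2. With shDDX41 #1, CD33 and FLT3 were called higher, and CSF1R, a receptor of the monocyte lineage, fell from 22.1 to 12.1 CPM (log2 fold change −0.86, edgeR adjusted p = 3.79e-05). With shDDX41 #2, PTPRC was called higher, ITGAM, an integrin of maturing myeloid cells, rose from 12.5 to 17.9 CPM (0.52, adjusted p = 0.00175) and KIT from 0.669 to 1.85 CPM (1.48, adjusted p = 0.00474). CSF1R was not called with shDDX41 #2 (−0.25, edgeR adjusted p = 0.122). With shDDX41 #1, ITGAM (−0.25, edgeR adjusted p = 0.0632) and KIT (−0.71, edgeR adjusted p = 0.196) were not called. ANPEP, with group means of at most 0.937 CPM, was not called with either hairpin. The part of these markers in the results on the granule genes was not tested. The 3 megakaryocyte and the 3 B cell markers summed to at most 0.364 and 1.26 CPM, and the 3 T cell markers to 0.975 to 1.33, 0.239 to 0.607 and 1.84 to 2.18 CPM in sh-Control, shDDX41 #1 and shDDX41 #2. The T cell values rest on CD3D, with CD2 at 0 and CD3E at or near 0. In bulk RNA, fewer cells that express a gene and less of its RNA per cell cannot be told apart.

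AZU1, PRTN3 and ELANE, 3 genes of the neutrophil serine protease family, lie side by side on the plus strand of chromosome 19, at chr19:825097-832018, chr19:840960-848175 and chr19:851014-856247 (GRCh38, GENCODE v29). CTSG, for the related protease cathepsin G, is on chromosome 14 (chr14:24573522-24576260, minus strand). RefSeq promoters (GRCh38.p14) were at hand for 5 of the 10 genes. Those of PRTN3 (chr19:840749-840998, plus strand), AZU1 (chr19:827587-827836, plus strand) and CTSG (chr14:24576251-24576500, minus strand) are shown as the 250 bases before the start that RefSeq gives. In all 3 that start lies inside the GENCODE span above. These 3 genes were picked after their values with the hairpins were seen. A relation of promoter sequence to these values was not tested. Capitals mark matches on either strand to GAGGAA, a core bound by PU.1 and other ETS factors (in 23.6% of all 35116 promoters), to TTNNGNAA, a C/EBP motif (33.2%), or to TGTGGT, the RUNX core (11%), and no match overlaps another.
PRTN3: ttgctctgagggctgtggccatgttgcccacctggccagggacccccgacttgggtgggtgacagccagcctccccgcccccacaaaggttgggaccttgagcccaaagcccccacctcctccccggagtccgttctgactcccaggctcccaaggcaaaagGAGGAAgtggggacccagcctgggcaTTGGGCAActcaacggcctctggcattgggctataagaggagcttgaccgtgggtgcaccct
AZU1: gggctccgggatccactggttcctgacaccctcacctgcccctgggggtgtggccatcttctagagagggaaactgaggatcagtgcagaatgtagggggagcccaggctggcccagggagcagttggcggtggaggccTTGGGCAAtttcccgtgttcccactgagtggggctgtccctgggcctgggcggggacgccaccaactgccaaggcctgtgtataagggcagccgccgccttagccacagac
CTSG: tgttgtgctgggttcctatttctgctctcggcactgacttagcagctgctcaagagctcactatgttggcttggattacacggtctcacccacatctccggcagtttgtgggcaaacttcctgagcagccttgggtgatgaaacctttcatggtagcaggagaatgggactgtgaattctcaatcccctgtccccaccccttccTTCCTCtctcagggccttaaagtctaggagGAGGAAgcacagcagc
The promoters of PRTN3 and AZU1 held the same 8 letters TTGGGCAA, which occur in 0.769% of all promoters, at 62 to 55 bases before the start of PRTN3 and 111 to 104 bases before that of AZU1. A GAGGAA match lay 88 to 83 bases before PRTN3. In CTSG that core occurred on both strands, at 46 to 41 and 16 to 11 bases before the start, with no C/EBP match. RNASE2 had 1 and MS4A3 3 C/EBP matches in the same window and neither had the other motifs, and the MYB core AACNG, present in 70.6% of promoters and in all 5 of these, is not marked.

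The granule genes made up 1.27% to 1.39% of all counts in sh-Control, 1.28% to 1.45% with shDDX41 #1 and 1.49% to 1.54% with shDDX41 #2. Divided by the length of their annotated exons, the control levels fell in the order PRTN3 (4158 ± 447 CPM per kb), SRGN (3696 ± 342), ELANE (992 ± 118), AZU1 (641 ± 66.5), LYZ (528 ± 31.1), RNASE2 (519 ± 20.4), CTSG (233 ± 13.3), CST7 (85.1 ± 10.4), MS4A3 (46.8 ± 2.24) and MPO (31.9 ± 1.79). PRTN3 and SRGN overlapped in their control libraries, as did LYZ and RNASE2, and the other neighbours in this order did not. Over all 9 libraries PRTN3 had the highest CPM per kb of the 22775 genes with an annotated length, also when the longest annotated transcript was used as the length. MPO, the gene for myeloperoxidase and the defining enzyme of the granule, ranked 1150. With shDDX41 #2, LYZ stood at 1031 ± 11.7 CPM per kb and ELANE at 893 ± 39.6, the reverse of their order in the controls.

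**Figure D1:**
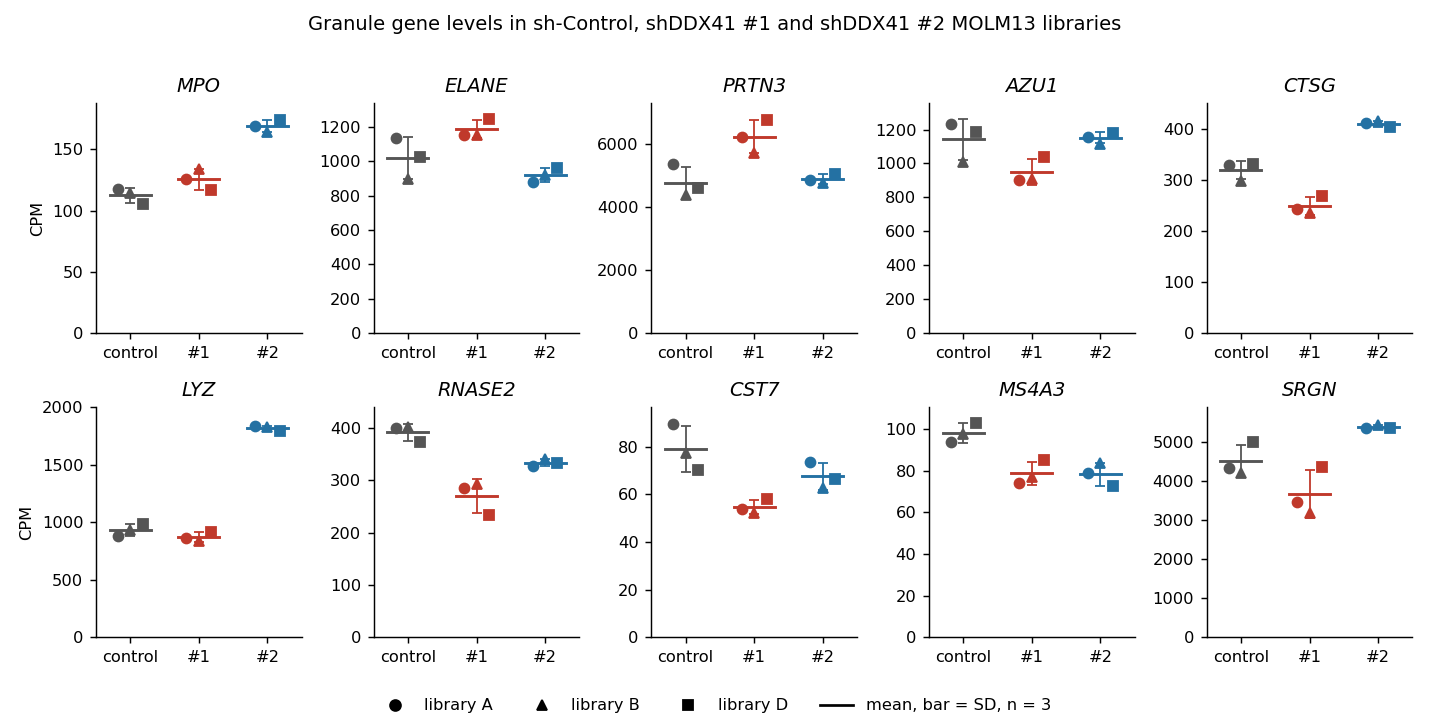
CPM of the 10 granule genes in each library, with 1 panel per gene and the y axis from 0. Symbols are libraries A, B and D, lines the group means and bars the SD. MPO and LYZ are highest with shDDX41 #2, PRTN3 and ELANE with shDDX41 #1, and CTSG is lowest with shDDX41 #1 and highest with shDDX41 #2.

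With shDDX41 #1, the hairpin that left less DDX41, 8 of the 10 genes were called against sh-Control, PRTN3 and ELANE higher and AZU1, CTSG, RNASE2, CST7, MS4A3 and SRGN lower. Of all genes tested, 47.8% were called in this comparison (23.7% higher and 24.1% lower), and groups were apart in all libraries for 6 of the 10 genes against 53.1% of all genes. The median log2 fold change of the 10 genes was −0.28 against 0.01 for all genes, and none was called with a 2-fold change, as 6.72% of all genes were. The call of ELANE was the least firm, and with upper quartile scaling 7 genes were called, 3 higher and 4 lower, against 49.6% of all genes. Without library shDDX41 #1 A, or without shDDX41 #1 B, 5 genes were called, 1 higher and 4 lower, against 42.1% and 42.7% of all genes in these fits.

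With shDDX41 #2, 5 of the 10 genes were called, MPO, CTSG and LYZ higher and RNASE2 and MS4A3 lower. In this comparison 25% of all genes were called (11.6% higher, 13.4% lower), and groups did not overlap for 6 of the 10 genes against 43.8% of all genes. The median log2 fold change was 0.02 for the 10 genes and −0.01 for all, and none was called with a 2-fold change, as 2.46% of all genes were. With the size factors of DESeq2, with upper quartile factors or with library size alone, 3 genes were called higher and 1 lower, RNASE2 being lost, against 24.5% to 24.9% of all genes. Both comparisons use the same sh-Control libraries. Each of the 10 genes was called with at least 1 hairpin, as were 58.5% of all genes. RNASE2 and MS4A3 were called lower with both, as were 11.2% of all genes, and CTSG was called in opposite directions, as were 3.05%. The 5 genes called with shDDX41 #1 and not with shDDX41 #2 were ELANE, PRTN3, AZU1, CST7 and SRGN (33.6% of all genes), and those called with shDDX41 #2 and not with shDDX41 #1 were MPO and LYZ (10.7%).

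Between the hairpins, 9 of the 10 genes differed, PRTN3 and ELANE being higher and MPO, AZU1, CTSG, LYZ, RNASE2, CST7 and SRGN lower with shDDX41 #1 than with shDDX41 #2. Of all genes, 48.8% were called in this comparison (24.6% higher, 24.2% lower), and groups did not overlap for 9 of the 10 genes against 57.7% of all genes. The median log2 difference was −0.31 for the 10 genes and 0.01 for all, and LYZ alone reached 2-fold, as did 6.55% of all genes. Without library shDDX41 #1 D, 8, 7 and 9 of the genes were called in the 3 comparisons, against 48.5%, 32.9% and 49.0% of all genes.

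**Figure D2:**
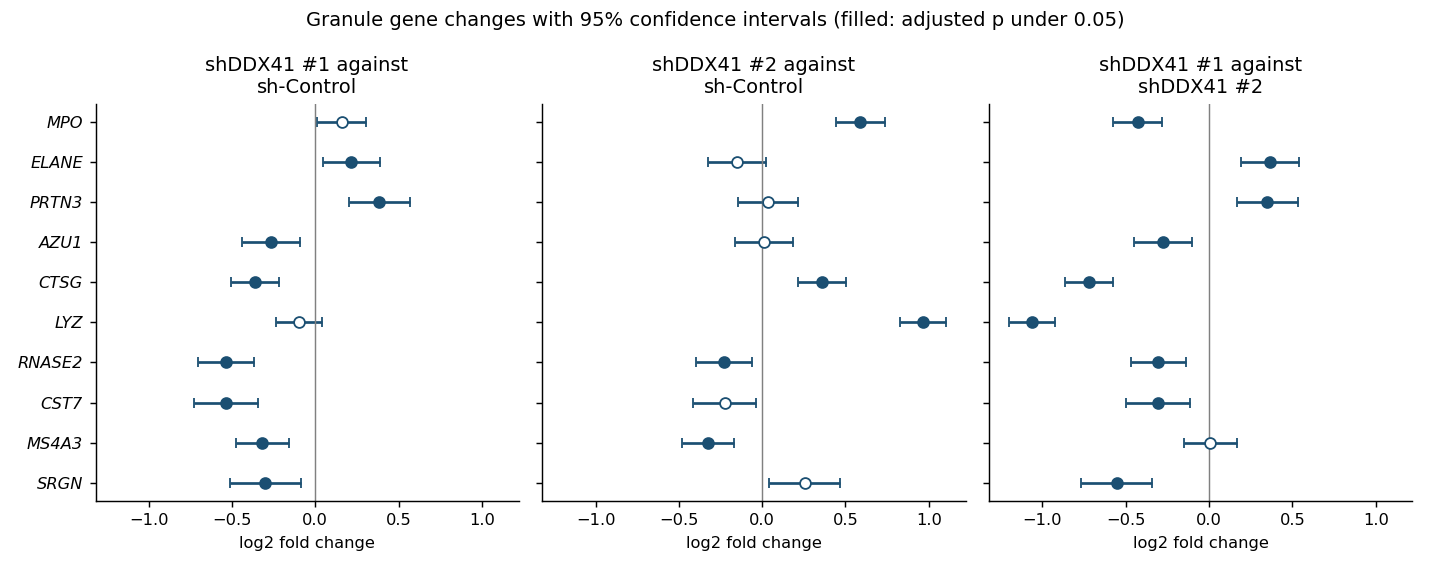
Log2 fold change of each granule gene (x axis) in the 3 comparisons, with 95% confidence intervals of the edgeR fit. Filled points passed an adjusted p under 0.05, and 8, 5 and 9 of the 10 are filled from left to right.

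MPO (chr17:58269856-58280935, minus strand) encodes myeloperoxidase, which makes hypochlorous acid from hydrogen peroxide and chloride. It was at 118, 114 and 105 CPM in the sh-Control libraries A, B and D, at 126, 134 and 117 with shDDX41 #1, and at 169, 165 and 174 with shDDX41 #2. All 3 libraries of shDDX41 #2 were above the 6 others, while those of shDDX41 #1 and sh-Control overlapped. MPO rose by a log2 fold change of 0.59 (SE 0.0688, edgeR adjusted p = 2.81e-05) with shDDX41 #2. With shDDX41 #1 the log2 fold change was 0.16 (95% interval 0.01 to 0.31, edgeR adjusted p = 0.0695), and it passed the test when library shDDX41 #1 D was left out (adjusted p = 0.00962) and with upper quartile scaling (0.0105), the range over all alternatives being 0.00962 to 0.244. Between the hairpins MPO had a log2 difference of −0.43 (SE 0.0686, adjusted p = 0.000118).

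ELANE encodes neutrophil elastase, a serine protease that cleaves elastin and bacterial outer membrane proteins. It was at 1136, 895 and 1027 CPM in sh-Control, at 1154, 1154 and 1245 with shDDX41 #1, and at 877, 920 and 959 with shDDX41 #2. The libraries of shDDX41 #1 were the 3 highest of the 9, close above sh-Control A. ELANE rose by a log2 fold change of 0.22 (SE 0.0808, edgeR adjusted p = 0.0379) with shDDX41 #1, and against shDDX41 #2 it was higher by a log2 value of 0.37 (SE 0.0809, adjusted p = 0.00162). The first of these calls was lost when any library except sh-Control A was left out (adjusted p up to 0.182, without sh-Control B) and in a fit on 6 libraries (0.0776), and the second was kept. With shDDX41 #2 the log2 fold change was −0.15 (adjusted p = 0.192), which passed only without sh-Control B (adjusted p = 0.0483).

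PRTN3 encodes proteinase 3, the protease against which the autoantibodies of granulomatosis with polyangiitis are directed. It was at 5343, 4368 and 4583 CPM in sh-Control, at 6219, 5695 and 6755 with shDDX41 #1, and at 4843, 4747 and 5055 with shDDX41 #2. The shDDX41 #1 libraries were again the highest, and the libraries of sh-Control and shDDX41 #2 overlapped. PRTN3 rose by a log2 fold change of 0.39 (SE 0.0855, edgeR adjusted p = 0.00177) with shDDX41 #1, against 0.04 with shDDX41 #2 (95% interval −0.15 to 0.22). Against shDDX41 #2 the log2 difference was 0.35 (SE 0.0854, adjusted p = 0.00336).

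AZU1 encodes azurocidin, a homologue of these proteases that has lost its catalytic activity and acts as an antimicrobial and monocyte attractant. It was at 1234, 1008 and 1184 CPM in sh-Control, at 904, 908 and 1041 with shDDX41 #1, and at 1156, 1117 and 1179 with shDDX41 #2. Libraries of sh-Control and shDDX41 #1 overlapped, since shDDX41 #1 D lay above sh-Control B, and those of the hairpins did not. AZU1 fell with shDDX41 #1, with a log2 fold change of −0.26 (SE 0.0813, edgeR adjusted p = 0.0145), while with shDDX41 #2 it was 0.01 (95% interval −0.16 to 0.18). The call with shDDX41 #1 was lost without sh-Control A (adjusted p = 0.0678), shDDX41 #1 A (0.0665) or shDDX41 #1 B (0.06) and with upper quartile scaling (0.0803). Between the hairpins the log2 difference was −0.28 (SE 0.0813, adjusted p = 0.0114).

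CTSG encodes cathepsin G, a protease of chymotrypsin-like specificity. It was at 328, 299 and 332 CPM in sh-Control, at 242, 234 and 269 with shDDX41 #1, and at 411, 416 and 404 with shDDX41 #2. The 3 groups did not overlap, with shDDX41 #1 lowest and shDDX41 #2 highest. CTSG fell by 0.36 on the log2 scale with shDDX41 #1 (SE 0.0676, edgeR adjusted p = 0.000472) and rose by 0.36 with shDDX41 #2 (SE 0.0673, adjusted p = 0.00137). Between the hairpins CTSG had a log2 difference of −0.72 (SE 0.0677, adjusted p = 7.27e-07).

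LYZ (chr12:69348341-69354234, plus strand) encodes lysozyme, which hydrolyses bacterial peptidoglycan and is also abundant in monocytes. It was at 877, 931 and 987 CPM in sh-Control, at 859, 838 and 915 with shDDX41 #1, and at 1833, 1827 and 1795 with shDDX41 #2. The libraries of shDDX41 #2 were nearly alike and far above the rest. LYZ rose by a log2 fold change of 0.96 (SE 0.0658, edgeR adjusted p = 1.63e-07) with shDDX41 #2, or 1.95-fold. With shDDX41 #1 it was −0.10 (95% interval −0.24 to 0.04, adjusted p = 0.233), and between the hairpins LYZ had a log2 difference of −1.06 (SE 0.066, adjusted p = 1.39e-08). An annotated antisense gene, AC020656.1, overlaps LYZ, and reads of the pair could not be told apart if the counting ignored strand.

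RNASE2, CST7 and MS4A3 were lower with shDDX41 #1. RNASE2 (chr14:20955452-20956436, plus strand) encodes the eosinophil-derived neurotoxin, a ribonuclease that progenitors and monocytes also make. It was at 400, 402 and 374 CPM in sh-Control, at 286, 293 and 233 with shDDX41 #1, and at 327, 342 and 334 with shDDX41 #2. The 3 groups did not overlap, and the level with shDDX41 #2 lay between the others. RNASE2 fell by 0.53 on the log2 scale (SE 0.0783, edgeR adjusted p = 5.88e-05) with shDDX41 #1 and by 0.23 (SE 0.0779, adjusted p = 0.0425) with shDDX41 #2. The second call was lost without sh-Control A (adjusted p = 0.0966), sh-Control B (0.141), shDDX41 #1 A (0.0589), shDDX41 #2 A (0.133), shDDX41 #2 B (0.0908) or shDDX41 #2 D (0.114). Between the hairpins RNASE2 had a log2 difference of −0.30 (SE 0.0783, adjusted p = 0.00483).

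CST7 (chr20:24949230-24959928, plus strand) encodes cystatin F, an inhibitor of cathepsin C and other cysteine proteases in the granules of immune cells. It was at 89.4, 77.5 and 70.4 CPM in sh-Control, at 54.0, 52.1 and 57.9 with shDDX41 #1, and at 73.8, 62.5 and 66.7 with shDDX41 #2. The shDDX41 #1 libraries were the 3 lowest, and sh-Control and shDDX41 #2 overlapped. CST7 fell by 0.53 on the log2 scale (SE 0.0901, edgeR adjusted p = 0.000207) with shDDX41 #1. With shDDX41 #2 CST7 had a log2 value of −0.23 (SE 0.0889, adjusted p = 0.0765), which passed without sh-Control D (adjusted p = 0.0265) or shDDX41 #1 D (0.0454), in 3 of 18 alternatives in all, and ranged to 0.301. The difference between the hairpins (log2 difference −0.31, SE 0.0905, adjusted p = 0.0112) was lost without shDDX41 #2 A (0.0690).

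MS4A3 (chr11:60056587-60071128, plus strand) encodes a membrane protein of the granulocyte-monocyte progenitor that acts on the cell cycle. It was at 93.6, 97.8 and 103 CPM in sh-Control, at 74.3, 76.9 and 85.1 with shDDX41 #1, and at 78.8, 83.7 and 72.5 with shDDX41 #2. Both hairpin groups lay below all control libraries and overlapped each other. MS4A3 fell by 0.32 on the log2 scale with shDDX41 #1 (SE 0.0747, edgeR adjusted p = 0.00272) and by 0.32 with shDDX41 #2 (SE 0.0744, adjusted p = 0.00541). Between the hairpins its log2 difference was 0.01, with a 95% interval from −0.15 to 0.17. DDX41 itself differed between them by a log2 value of −1.79, and a relation of MS4A3 to the DDX41 level was not tested.

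SRGN (chr10:69088106-69104811, plus strand) encodes serglycin, the proteoglycan core on which basic granule proteins are stored. It was at 4324, 4215 and 4987 CPM in sh-Control, at 3456, 3187 and 4348 with shDDX41 #1, and at 5366, 5443 and 5346 with shDDX41 #2. The 3 libraries of shDDX41 #2 were the highest of the 9, and shDDX41 #1 D overlapped the controls. SRGN fell by 0.30 on the log2 scale (SE 0.10, edgeR adjusted p = 0.0228) with shDDX41 #1, and against shDDX41 #2 its log2 difference was −0.56 (SE 0.101, adjusted p = 0.000345). The call against sh-Control was lost without sh-Control D (adjusted p = 0.108), shDDX41 #1 A (0.0849) or shDDX41 #1 B (0.109), with upper quartile scaling (0.0907) and in a fit on 6 libraries (0.0568). With shDDX41 #2 SRGN had a log2 value of 0.26 (SE 0.10, adjusted p = 0.0749), which passed without sh-Control D (0.0446), shDDX41 #1 B (0.0402) or shDDX41 #1 D (0.00292), without a filter (0.00717), with DESeq2 (0.0352) and in a fit on 6 libraries (0.0058), and in 7 of 18 alternatives in all.

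Because scaling moves every gene of a library together, ratios of raw counts within a library were also compared. PRTN3 had 4.33, 4.33 and 3.87 counts for each count of AZU1 in sh-Control, 6.88, 6.27 and 6.49 with shDDX41 #1, and 4.19, 4.25 and 4.29 with shDDX41 #2. The ratio was thus higher in all 3 libraries of shDDX41 #1 than in the 6 others. ELANE against AZU1 gave a mean ratio of 0.892 ± 0.0272 in sh-Control, 1.25 ± 0.0452 with shDDX41 #1 and 0.798 ± 0.0350 with shDDX41 #2 (n = 3 each), and the 3 groups did not overlap. PRTN3 against CTSG stood at 14.9 ± 1.25, 25.0 ± 0.692 and 11.9 ± 0.557, and LYZ against ELANE at 0.924 ± 0.138, 0.735 ± 0.00908 and 1.98 ± 0.109. PRTN3 against ELANE stood at 4.68 ± 0.210, 5.25 ± 0.274 and 5.32 ± 0.184. With 3 libraries against 3, an exact two-sided permutation test cannot give a p under 0.1, and it gave p = 0.1 for PRTN3 against AZU1 with shDDX41 #1 and p = 1 with shDDX41 #2.

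**Figure D3:**
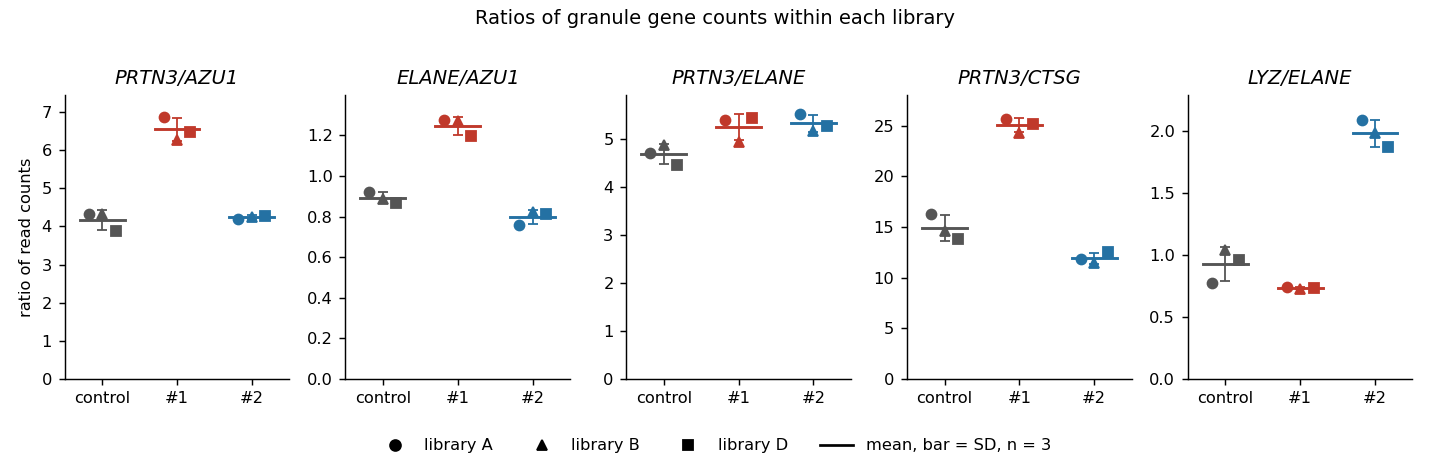
Ratio of the raw counts of 2 granule genes within each library (y axis from 0, 1 panel per pair). Symbols are libraries, lines means and bars the SD (n = 3). PRTN3/AZU1 and ELANE/AZU1 are highest in the shDDX41 #1 libraries, LYZ/ELANE in the shDDX41 #2 libraries.

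Across the 9 libraries, Pearson correlations of log2 CPM were positive for 25 of the 45 pairs of granule genes. These values describe 3 groups of 3 libraries that share a scaling, so they are given without a test. The highest were CTSG with SRGN (r = 0.947), CTSG with LYZ (0.890), MPO with LYZ (0.882), ELANE with PRTN3 (0.869) and AZU1 with SRGN (0.832). PRTN3 and RNASE2 had the lowest (−0.854), and PRTN3 and AZU1, adjacent on the chromosome, had −0.469. Among 9824 other genes with a mean of at least 5 CPM, those most like MPO over the 9 libraries were FOSL2 (r = 0.989), ZCCHC2 (0.984), WDTC1 (0.983), DENND2D (0.976) and NFATC2 (0.973). FOSL2 encodes an AP-1 transcription factor and NFATC2 a calcium-regulated one. FOSL2 was at 103, 118 and 155 CPM in sh-Control, shDDX41 #1 and shDDX41 #2, a pattern that its choice by likeness to MPO fixed.

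The chromosome 19 cluster was followed gene by gene. In the annotation PLPPR3, AZU1, PRTN3, ELANE and CFD follow each other, with 3119, 8941, 2838 and 3395 bases between neighbours. CFD encodes complement factor D (adipsin), a serine protease that activates the alternative complement pathway, and PLPPR3, which the table lists by its older symbol LPPR3, a membrane protein of the lipid phosphatase-related family. With shDDX41 #1, CFD rose from 286 ± 48.0 to 422 ± 79.3 CPM (a log2 fold change of 0.56, SE 0.123, edgeR adjusted p = 0.00162) and PLPPR3 from 391 ± 32.3 to 476 ± 61.0 CPM (0.28, SE 0.0861, adjusted p = 0.0136, lost without sh-Control B at 0.065). Thus 4 of the 5 neighbours were called higher and AZU1, the gene between PLPPR3 and PRTN3, was called lower. Of all genes, 23.7% were called higher and 24.1% lower in this comparison. The call of ELANE was lost in 10 alternatives, that of AZU1 in 5 and that of PLPPR3 in 2. Those of PRTN3 and CFD were kept. Beyond them, PTBP1, R3HDM4 and MED16 were not called with either hairpin, MED16 having a log2 fold change of −0.18 (adjusted p = 0.0544, passing in 2 alternatives) with shDDX41 #1, and PALM, MISP and KISS1R had group means of at most 0.722 CPM. With shDDX41 #2 none of the 6 tested neighbours of the protease genes was called by edgeR (log2 fold changes from −0.15, PALM, to 0.08, MED16). In this comparison 25% of all genes were called.

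**Figure D4:**
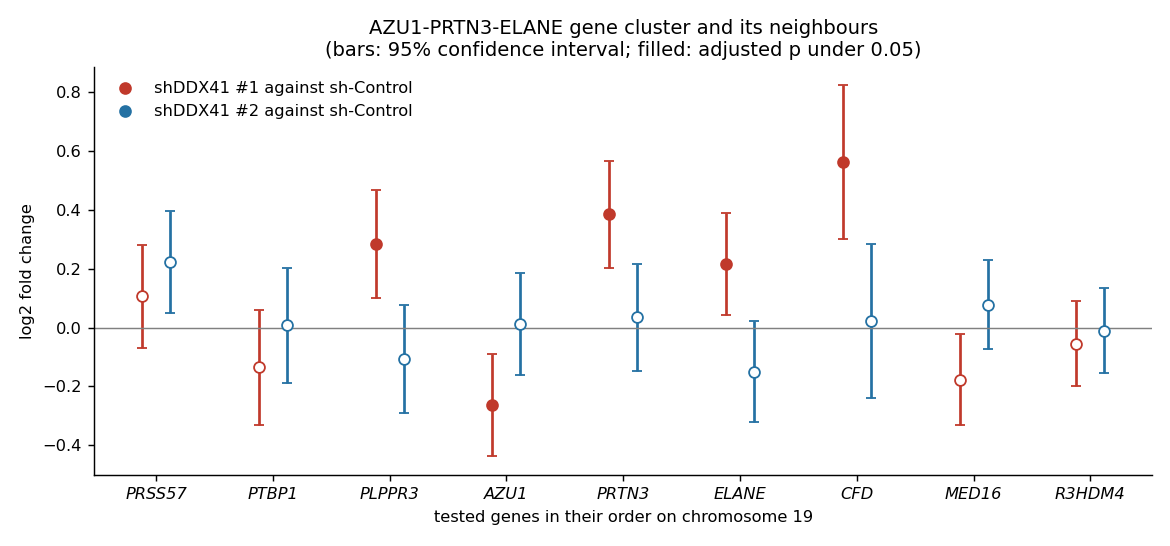
Log2 fold change against sh-Control (y axis) of the tested genes around AZU1, PRTN3 and ELANE, in their order on chromosome 19, with 95% confidence intervals. Red is shDDX41 #1 and blue shDDX41 #2, and filled points passed an adjusted p under 0.05. PLPPR3, PRTN3, ELANE and CFD are filled above 0 and AZU1 below 0 for shDDX41 #1. PALM, with group means of at most 0.722 CPM, is not drawn.

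Of 8 other genes for contents or membrane proteins of the primary granule, 4 were tested, and 2 were called with shDDX41 #1 and 1 with shDDX41 #2 (median log2 fold changes 0.02 and 0.22). The shares called of all genes were 47.8% and 25%. BPI, the bactericidal protein that binds lipopolysaccharide, was at 45.7, 36.3 and 41.8 CPM in sh-Control, at 25.8, 29.3 and 26.6 with shDDX41 #1, and at 88.6, 95.7 and 92.2 with shDDX41 #2. It thus fell with shDDX41 #1 (log2 fold change −0.60, SE 0.0881, edgeR adjusted p = 6.03e-05) and rose with shDDX41 #2 (1.16, SE 0.0831, adjusted p = 2.38e-07), in the same directions as CTSG. Annotated genes overlap BPI, AL359555.3 on the same strand and AL359555.1 on the opposite strand, and their part in its counts was not tested. RNASE3, the eosinophil cationic protein and the closest relative of RNASE2, rose with shDDX41 #1 from 25.4 ± 2.79 to 31.8 ± 2.43 CPM (log2 fold change 0.32, adjusted p = 0.00908), where RNASE2 fell. With shDDX41 #2 RNASE3 was at 29.7 ± 0.934 CPM (0.22, edgeR adjusted p = 0.0863), which passed in 2 alternatives. Between the hairpins RNASE3 was not called (0.10, edgeR adjusted p = 0.389). RNASE2 and RNASE3 are similar in sequence, and reads shared between them could be assigned to either. PRSS57, neutrophil serine protease 4, had log2 fold changes of 0.11 (adjusted p = 0.303) and 0.22 (adjusted p = 0.0588), the second of which passed in 8 of 18 alternatives (adjusted p from 0.00787). The defensin genes DEFA1, DEFA1B, DEFA3 and DEFA4 had no count in any library, which allows up to 0.183 CPM in the smallest library, and DEFA1, DEFA1B and DEFA3 are near-identical copies whose reads can be lost in counting.

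Of 10 genes for activators, targets and inhibitors of the granule proteases, 9 were tested, and 1 rose with shDDX41 #1 and 2 with shDDX41 #2 (medians 0.16 and 0.07). Called higher were 23.7% of all genes with shDDX41 #1 and 11.6% with shDDX41 #2. CST3, cystatin C, a secreted inhibitor of cysteine cathepsins, rose from 173 ± 14.8 to 222 ± 29.3 CPM with shDDX41 #1 (a log2 fold change of 0.36, SE 0.0887, edgeR adjusted p = 0.00376) and to 279 ± 10.2 with shDDX41 #2 (0.68, SE 0.0886, adjusted p = 6.61e-05). The cystatin gene CST7 was lower in the same shDDX41 #1 libraries. SLPI, an inhibitor of elastase and cathepsin G, rose with shDDX41 #2 from 0.574 ± 0.178 to 1.45 ± 0.336 CPM (1.34, SE 0.336, adjusted p = 0.00951, lost without shDDX41 #2 A at 0.0545). SERPINB1, the main intracellular inhibitor of elastase, proteinase 3 and cathepsin G, stood at 160, 156 and 184 CPM in sh-Control, shDDX41 #1 and shDDX41 #2 and was not called against sh-Control, but with shDDX41 #2 (log2 fold change 0.20, adjusted p = 0.0617) it passed in 8 of 18 alternatives (adjusted p from 0.0128). CSTA, cystatin A, had log2 fold changes of 0.19 (adjusted p = 0.102) and 0.07 (adjusted p = 0.636), the first of which passed in 2 alternatives. CTSC, the cathepsin C gene whose product activates the granule proteases, was not called in any comparison, with 284, 273 and 267 CPM, and is named after its values were seen.

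Specific and gelatinase granules form after the primary granules. Of 13 genes for their proteins, 4 were tested, 1 falling with shDDX41 #1 and 2 rising with shDDX41 #2 (medians −0.55 and 0.31). Among all genes, 24.1% were called lower with shDDX41 #1 and 11.6% higher with shDDX41 #2. LTF, OLFM4, CEACAM8, CRISP3, MMP8 and ARG1 had no count, and LCN2, CAMP and MMP9 had group means of at most 0.192 CPM. CHI3L1, the chitinase-like glycoprotein YKL-40, rose with shDDX41 #2 from 161 ± 7.23 to 201 ± 7.08 CPM (log2 fold change 0.32, edgeR adjusted p = 0.00216). HP, haptoglobin, was low and rose with shDDX41 #2 from 3.01 ± 0.956 to 5.21 ± 0.645 CPM (0.79, adjusted p = 0.0243, lost without sh-Control A at 0.0929, sh-Control B at 0.0899, shDDX41 #2 A at 0.0872 or shDDX41 #2 B at 0.0801). PTX3, the long pentraxin, fell with shDDX41 #1 from 2.94 ± 0.867 to 0.704 ± 0.0966 CPM (−2.05, SE 0.277, adjusted p = 2.64e-05). CD177, a surface protein of neutrophils, had 0.730 ± 0.20, 0.341 ± 0.151 and 0.564 ± 0.218 CPM in sh-Control, shDDX41 #1 and shDDX41 #2 and was not called.

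All 11 genes for regulators of granule gene transcription were tested, and 5 were called with shDDX41 #1 (3 higher, 2 lower, median 0.02) and 1 with shDDX41 #2 (higher, median −0.17). In these comparisons 47.8% and 25% of all genes were called. With shDDX41 #1, KLF4, a monocytic zinc finger factor, rose from 12.5 ± 2.49 to 29 ± 5.88 CPM (a log2 fold change of 1.21, SE 0.15, edgeR adjusted p = 1.19e-05). IRF8, which directs progenitors to the monocyte and dendritic cell fates, had 411 ± 24.8 CPM in sh-Control and rose to 758 ± 19.5 with shDDX41 #1 (log2 value 0.88, adjusted p = 7.87e-08) and 497 ± 23.8 with shDDX41 #2 (log2 value 0.27, adjusted p = 0.00675). MYB, a factor of proliferating progenitors, rose from 411 ± 46.4 to 552 ± 22.7 CPM with shDDX41 #1 (0.43, adjusted p = 0.000487). With shDDX41 #2 MYB had a log2 fold change of −0.19 (edgeR adjusted p = 0.0949), which passed in 3 alternatives. Between the hairpins it differed by 0.62 (edgeR adjusted p = 1.73e-05). CBFB, the partner of RUNX factors on DNA, fell from 119 ± 5.43 to 59.1 ± 3.33 CPM with shDDX41 #1 (−1.0, SE 0.0665, adjusted p = 2.54e-08). It was at 117 ± 2.35 CPM with shDDX41 #2. CEBPE, a factor of later granulocyte maturation and named after its values were seen, fell with shDDX41 #1 from 3.01 ± 0.821 to 1.41 ± 0.161 CPM (−1.10, adjusted p = 0.00303). CEBPA, SPI1, which encodes PU.1, and RUNX1, named likewise, were not called with either hairpin, with log2 fold changes from −0.14 to 0.02. GFI1, a repressor that favours the granulocyte fate, had log2 fold changes of 0.15 (adjusted p = 0.0772) and −0.17 (adjusted p = 0.0721), each passing in 2 alternatives, and differed between the hairpins by 0.32 (adjusted p = 0.00105).

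**Figure D5:**
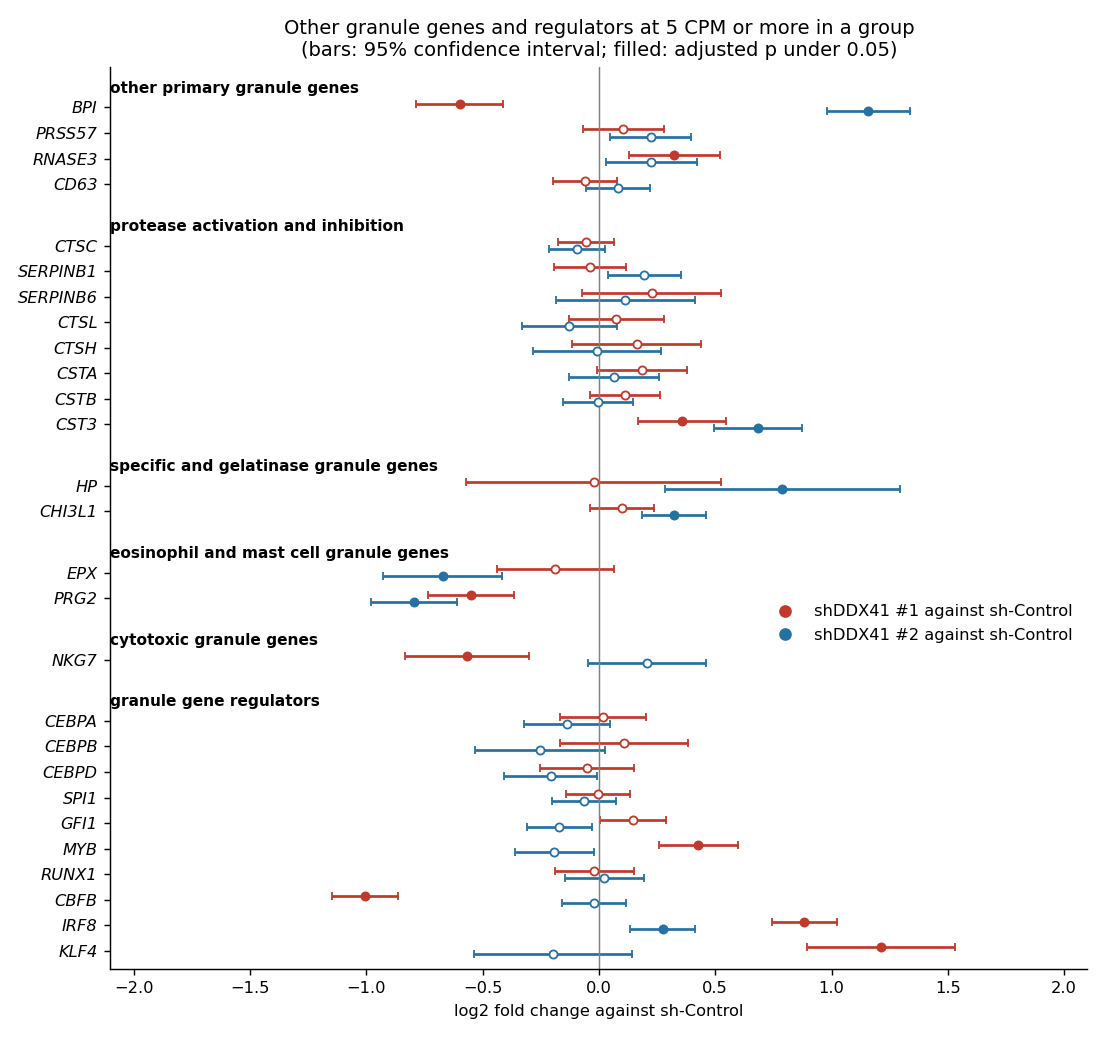
Log2 fold change against sh-Control (x axis) of 27 other granule genes and regulators with a mean of at least 5 CPM in a group, with 95% confidence intervals and grouped by list. Red is shDDX41 #1 and blue shDDX41 #2, and filled points passed an adjusted p under 0.05. BPI lies below 0 for shDDX41 #1 and above 0 for shDDX41 #2, and CBFB, MYB and KLF4 are filled for shDDX41 #1 alone.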

How the data were processed

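The authors deposited whole-number, not normalized read counts per gene symbol for 9 MOLM13 libraries (column-kit RNA, poly(A) selection). The submitters' processing notes name FastQC 0.11.7, HISAT2 2.0.5 and featureCounts 1.5.2, and builds of human and mouse with no role given. The labels name a stranded kit and the methods of the study a kit of the same family that does not mark strand, so genes overlapping on opposite strands are uncertain. How reads with several matches were counted is not given in the sources used here. Every column matched 1 library, with 0 left over.

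Groups came from the labels. The tools were R 4.3.3 and edgeR 4.0.16, with filterByExpr (minimum count 10), TMM scaling (factors 0.963 to 1.02), and quasi-likelihood tests over all 9 libraries (a coefficient for each group), since the study names the iGEAK program but no test. Tests were two-sided, with p-values adjusted by Benjamini-Hochberg over 12712 genes. The biological coefficient of variation was 0.0768. The labels do not say whether libraries came from separate cultures, so p-values measure only the spread between them. Scripts were tested on simulated data. Alternatives were other scalings and filters, DESeq2 1.42.0, 6-library fits, a block on the letters, left-out libraries and an adjusted p under 0.01.

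The granule genes and other lists were chosen with earlier results of these data known. Named were the 10 genes, DDX41, up to 3 genes per list and hairpin with the smallest adjusted p, and the 5 genes most like MPO. Positions and exon lengths are from GENCODE v29, which may not be the annotation used for counting, and promoters from RefSeq. MPO, ELANE, LYZ, CST7 and SRGN have no promoter shown. LPPR3 was matched to PLPPR3 through RefSeq synonyms.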

Additional observations from a re-analysis of the deposited data

Results flagged for a closer look

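In the fit reported, CTSG was the only 1 of the 10 granule genes that was called against sh-Control with both hairpins in opposite directions and also called between them. The effect of shDDX41 #1 minus that of shDDX41 #2 was −0.72 on the log2 scale (SE 0.0677, edgeR adjusted p = 7.27e-07), with all 3 shDDX41 #1 libraries below and all 3 shDDX41 #2 libraries above the controls. Over the 18 alternatives this difference ranged from −0.78 to −0.68. SRGN was also called in opposite directions in 4 of the 18 alternatives, without a filter, with DESeq2, with a block on the letters and without shDDX41 #1 D.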

How the results depend on the processing

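Of 108 gene results (named genes in 3 comparisons), 39 changed their call or sign under at least 1 of 18 alternatives, and 1795 values kept both, 58 lost a call, 45 gained one and 22 changed sign. DDX41 kept its call in every alternative. For shDDX41 #1 against sh-Control, 5 granule genes passed an adjusted p of 0.01 (34.6% of all genes did), and 5 to 8 were called with a library left out (41.5% to 48.5% of all genes), with 5 without shDDX41 #1 A or shDDX41 #1 B. For shDDX41 #2 this range was 4 to 7 (15.9% to 32.9%) and between the hairpins 8 to 9 (40.1% to 49.0%). Deviations of same-letter libraries correlated at 0.0725, 0.158 and 0.243 between sh-Control and shDDX41 #1, each the highest for its library, and at −0.0574 to 0.0225 in pairs with shDDX41 #2. The labels do not say that the letters mark shared batches, so a block on them was used only as an alternative. Whether sh-Control and shDDX41 #1 libraries of the same letter shared a batch was not tested. With the replicate block 8, 7 and 9 genes were called (50%, 28.1% and 51.2% of all genes), CST7 and SRGN with shDDX41 #2 gaining a call (adjusted p = 0.0377 and 0.0252). No sign change concerned a called value. With upper quartile factors, SERPINB1 and HP with shDDX41 #1 were at 0.0387 and 0.0550 and CBFB with shDDX41 #2 at 0.0138. With library size alone, AZU1 with shDDX41 #2 was at −0.00722. MS4A3 between the hairpins was at −0.000593 without a filter and at −0.00229 with 6 libraries. With a library left out, log2 values ranged from −0.550 to 1.05 for GZMH, −0.0880 to 0.0103 for SERPINB1 and −0.30 to 0.275 for HP (shDDX41 #1), from −0.0197 to 0.124 for PRTN3, −0.0666 to 0.0690 for AZU1, −0.107 to 0.101 for CFD, −0.0484 to 0.0152 for CBFB and −0.552 to 0.111 for PALM (shDDX41 #2), and from −0.0495 to 0.0582 for MS4A3 between the hairpins. The causes were not tested. Genes under about 1 CPM are limited by depth.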

Other observations

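Granule genes of other lineages were also measured. Of 8 eosinophil and mast cell granule genes, 3 were tested, and 1 fell with shDDX41 #1 and 2 with shDDX41 #2 (medians −0.19 and −0.67). Called lower were 24.1% of all genes with shDDX41 #1 and 13.4% with shDDX41 #2. PRG2, the major basic protein of eosinophils, was at 560, 510 and 589 CPM in sh-Control, at 340, 357 and 435 with shDDX41 #1, and at 321, 305 and 331 with shDDX41 #2, so that both hairpin groups lay below the controls. PRG2 fell by 0.55 on the log2 scale (SE 0.0866, edgeR adjusted p = 0.00011) with shDDX41 #1 and by 0.79 (SE 0.0869, adjusted p = 1.51e-05) with shDDX41 #2. EPX, eosinophil peroxidase and the closest relative of MPO, fell with shDDX41 #2 from 27.0 ± 4.64 to 16.9 ± 2.14 CPM (log2 fold change −0.67, adjusted p = 0.000982), in the libraries where MPO rose. TPSB2, a mast cell tryptase, stayed under 1 CPM and was not called, and CPA3 and HDC had no count.

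Of 8 genes of cytotoxic granules, 2 were tested, 1 falling with shDDX41 #1 and 1 rising with shDDX41 #2 (medians −0.27 and 1.05). Among all genes, 24.1% were called lower with shDDX41 #1 and 11.6% higher with shDDX41 #2. NKG7, a granule membrane protein of natural killer and T cells, fell with shDDX41 #1 from 20.3 ± 1.59 to 13.7 ± 2.77 CPM (a log2 fold change of −0.57, SE 0.126, edgeR adjusted p = 0.00176). GZMH, a granzyme near CTSG on chromosome 14, had at most 0.474 CPM in sh-Control and 0.756, 0.843 and 1.15 CPM with shDDX41 #2 (1.90, SE 0.553, adjusted p = 0.0206, lost without sh-Control B at 0.0627, shDDX41 #2 B at 0.0526 or shDDX41 #2 D at 0.0808). GZMA had no count, and GZMB, GZMK, GZMM and PRF1 had group means of at most 0.125 CPM. The T cell marker CD3D fell with shDDX41 #1 (log2 fold change −1.25, edgeR adjusted p = 0.00877), as NKG7 did, and had a log2 fold change of 0.73 with shDDX41 #2 (adjusted p = 0.0643). It was at 1.16 ± 0.179, 0.483 ± 0.211 and 1.92 ± 0.174 CPM in the 3 groups, and its part in the results on these genes was not tested.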
